A study of Mus musculus with 17 samples.

Results

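MHC class I molecules show short peptides from inside the cell to T cells and natural killer cells. A heavy chain (here H2-K1 and H2-D1) pairs with beta-2 microglobulin, encoded by B2m, and the pair is filled with peptide in the endoplasmic reticulum. The related H2-Q5, which RefSeq lists as a transcribed pseudogene, is counted here with the heavy chain genes. The peptides are cut by the proteasome, in which interferon exchanges constitutive catalytic subunits for the immunosubunits Psmb8, Psmb9 and Psmb10, are pumped into the reticulum by the transporter made of Tap1 and Tap2, and are loaded with the help of tapasin, encoded by Tapbp. In most cells interferon raises this pathway through IRF and STAT factors, and NLRC5 acts as a transactivator of class I promoters.

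These 10 genes, of 18193 with a probe set of their own on the array, were followed in mouse hematopoietic stem cells (HSCs), the cells of the blood system that give rise to all its lineages. The genes were chosen by results of these same arrays, in which class I genes were lower in fetal liver than in adult HSCs. The values of that comparison chose them and are therefore given as a description, with no test. The members are all 31 probe sets annotated to 1 of the 10 gene symbols. H2-D1 had 11 of them, H2-K1 6, Tap1 4, H2-Q5 3, B2m, Tapbp and Psmb8 2 each, and Tap2, Psmb9 and Psmb10 1 each, where a shared probe set counts under each of its members. In the annotation 3 probe sets were shared by several class I genes: 1422348_at by Gm38417, H2-Q2 and H2-D1, 1424948_x_at by H2-K1 and H2-D1, and 1451593_at by H2-Q5 and H2-K1. Class I heavy chains are close in sequence, and the ending _x_at marks probe sets that the manufacturer expects to hybridize with other transcripts, so signal of one heavy chain gene may include that of another. One Tap1 probe set, 1420274_at, lay at the lowest deposited value on all arrays, which left 30 that were tested.

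The sort took CD150+ CD48- cells from the lin- sca1+ ckit+ fraction, with an added gate for low Mac-1 in fetal liver. There were 5 groups: fetal liver at E15.5 (n = 3), adult control at day 7 (n = 3), adult C/EBPa KO at day 7 (n = 3), adult control at day 21 (n = 4) and adult C/EBPa KO at day 21 (n = 4). All 14 adult samples, controls included, came from mice given pIpC, a double-stranded RNA that elicits interferon, and the days count from it; the fetal samples carry no such label. The KO arrays carry C/EBPa KO in their titles but Pu.1 knock-in (PU.1ki/ki) as genotype, controls are called wild type, and no genotype is given for fetal liver. The labels name no Cre line, strain, H2 haplotype, age in adult mice or pooling of animals. Replicates are not said to come from separate animals, and p-values then reflect no more than sample-to-sample spread, which may be technical.

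Cebpa, the gene for C/EBPa, checked the titles. KO arrays averaged 27.9 ± 6.26 (SD, n = 3) at day 7, where control arrays averaged 198 ± 102 (SD, n = 3). On day 21 the KO mean was 30.4 ± 6.64 (SD, n = 4) next to 259.6 ± 197 (SD, n = 4) for control. Every KO array lay below every control array of its day. Fetal arrays, at 30.2 to 81.0, also lay below all control arrays, the lowest of which read 115. Spi1, the gene for PU.1, averaged 382 ± 67.9 (SD, n = 3) in KO and 312 ± 113 (SD, n = 3) in control at day 7. At day 21 it averaged 316 ± 90.4 (SD, n = 4) and 361 ± 204 (SD, n = 4). Spi1 values of KO and control arrays overlapped on both days. Markers of HSCs (8 of 10 listed genes measured) had a mean log2 intensity of 8.58 to 9.11 per fetal array and of 8.19 to 9.17 per adult array. Markers of several other cell types stood higher on fetal arrays. The 7 endothelial genes had 7.70 to 10.2 on fetal against 5.28 to 6.09 on adult arrays, the 10 macrophage and monocyte genes 6.78 to 7.88 against 5.07 to 6.01, and the 7 neutrophil genes 8.76 to 11.5 against 5.55 to 8.75. The 6 measured hepatocyte genes had 6.49 to 10.4 against 5.70 to 7.05, with fetal replicate 1 inside the adult range. The 5 measured erythroid genes had 7.92 to 8.46, above the control range of 5.75 to 7.59 but partly inside the adult range of 5.75 to 8.39. Dendritic cell genes had 5.99 to 6.47 on fetal and 5.58 to 6.24 on adult arrays. Multipotent progenitor genes had 7.80 to 8.65 and 6.23 to 9.17. Cd48 and Itgam, markers outside the gate, had 5.32 to 7.19 and 4 to 6.68. The lists for B cells, T and NK cells and megakaryocytes were not higher, at 5.29 to 5.51, 4.79 to 5.35 and 5.97 to 7.32 on fetal arrays against 5.09 to 5.56, 4.91 to 5.66 and 6.20 to 9.46 on adult arrays. In adults Adgre1, which encodes the macrophage marker F4/80, was at the lowest value on every array, and on fetal arrays it had 4 to 6.43. Other genes of that list were mixed in adults. C1qa stayed at 4.61 or lower, while Lyz2 was at 9.51 or higher on every adult array. Cd68 and Csf1r reached 8.69 and 9.18 in KO at day 21. Adgre1 alone therefore does not show that adult arrays lack macrophage or monocyte signal. Log2 of the summed intensity of the macrophage and monocyte list was 11.7 to 12.9 on fetal and 10.4 to 11.0 on adult arrays, and of the endothelial list 11.1 to 13.5 and 8.23 to 9.57. The part of these cells in the results below was not tested.

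The start regions of the class I genes are shown first because their letters are the ones by which interferon and NF-kB factors are known to act on class I genes. RefSeq promoter entries of GRCm38.p6 were matched by symbol for 8 of the 10 genes, all but Tap2 and H2-Q5, and the 250 bases before each start were searched on both strands. H2-K1 and H2-D1 carry the same pair of elements within 30 bases. In the lines below, capitals mark GGG and CCC separated by 5 bases, a form of the NF-kB motif, and the reverse complement of GAANNGAAA, a form of the interferon element.
H2-K1, chr17:34000429-34000458, minus strand: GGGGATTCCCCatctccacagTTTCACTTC
H2-D1, chr17:35262923-35262952, plus strand: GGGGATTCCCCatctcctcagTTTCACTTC
These windows differ at 1 of 30 bases, which lies between the elements. The H2-K1 window ends 82 bases before the start that the promoter table uses, but the annotated H2-K1 gene (33996012 to 34000619) reaches past it. Over 109 bases around the interferon element the promoters of both genes were identical at 104 positions, or 95.4%.

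B2m, on another chromosome, holds GAAA, any 2 bases, GAAA, which is the longer form of the interferon element, between 2 copies of the GGG and CCC form, all in capitals here.
B2m, chr2:122147498-122147607, plus strand: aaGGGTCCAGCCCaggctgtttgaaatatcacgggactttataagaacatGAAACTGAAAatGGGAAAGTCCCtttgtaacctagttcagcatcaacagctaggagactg
Psmb9 and Tap1 are read in opposite directions from starts that lie 225 bases apart, so that a subunit of the immunoproteasome and one of the peptide transporter share a start region. Capitals in it mark CCAAT, the NF-Y box, and the GGG and CCC form.
Psmb9 to Tap1, chr17:34187331-34187555, plus strand: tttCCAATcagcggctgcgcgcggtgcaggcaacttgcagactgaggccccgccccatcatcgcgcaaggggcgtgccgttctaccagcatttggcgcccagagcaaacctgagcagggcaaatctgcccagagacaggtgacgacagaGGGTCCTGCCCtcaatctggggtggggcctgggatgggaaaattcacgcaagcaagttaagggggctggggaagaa

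The GGG and CCC form was present in 5 of the 8 promoters (B2m, H2-K1, H2-D1, Psmb9 and Tap1, the last 2 through the same bases) and in 12.2% of all 32851 promoters. CCAAT was present in 6 of 8 and in 33.8% of all. GAANNGAAA was found in 2 of 8 (H2-K1 and H2-D1) against 6.31% of all, and the longer interferon form, which can overlap it, in 1 of 8 against 2.98%. TTCNNNGAA, the STAT form, was found for Psmb8 alone, against 7.02% of all, and TGACGT, a cyclic AMP response element half-site, for none of 8, against 6.47%. These matches describe the letters of reference sequence, and no binding was measured here.

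Fetal liver HSCs had less signal for class I heavy chains and B2m than adult HSCs. For the loading and proteasome genes the fetal and control arrays overlapped on most probe sets. On 16 of the 30 probe sets all 3 fetal arrays lay below all 7 adult control arrays, and on 0 they lay above all 7. Over all 40023 probe sets tested these shares were 2.78% and 2.8%. On 14 of the 30 the fetal arrays lay below all 14 adult arrays, KO included, against 1.35% of all probe sets. The median difference over the 30 probe sets, fetal liver minus the mean of both control groups in log2 intensity, was -0.86, beside -0.0032 over all probe sets. All of these differences belong to the contrast that chose the genes, and probe sets of the same gene share transcripts. In these bulk samples fewer cells of a type and less RNA per cell cannot be told apart. Fetal and adult groups also differ in organ, age, the Mac-1 gate and pIpC, which cannot be told apart from each other. Strain and H2 haplotype are not labelled, nor is the fetal genotype, so a difference in these cannot be told apart either.

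**Figure D1:**
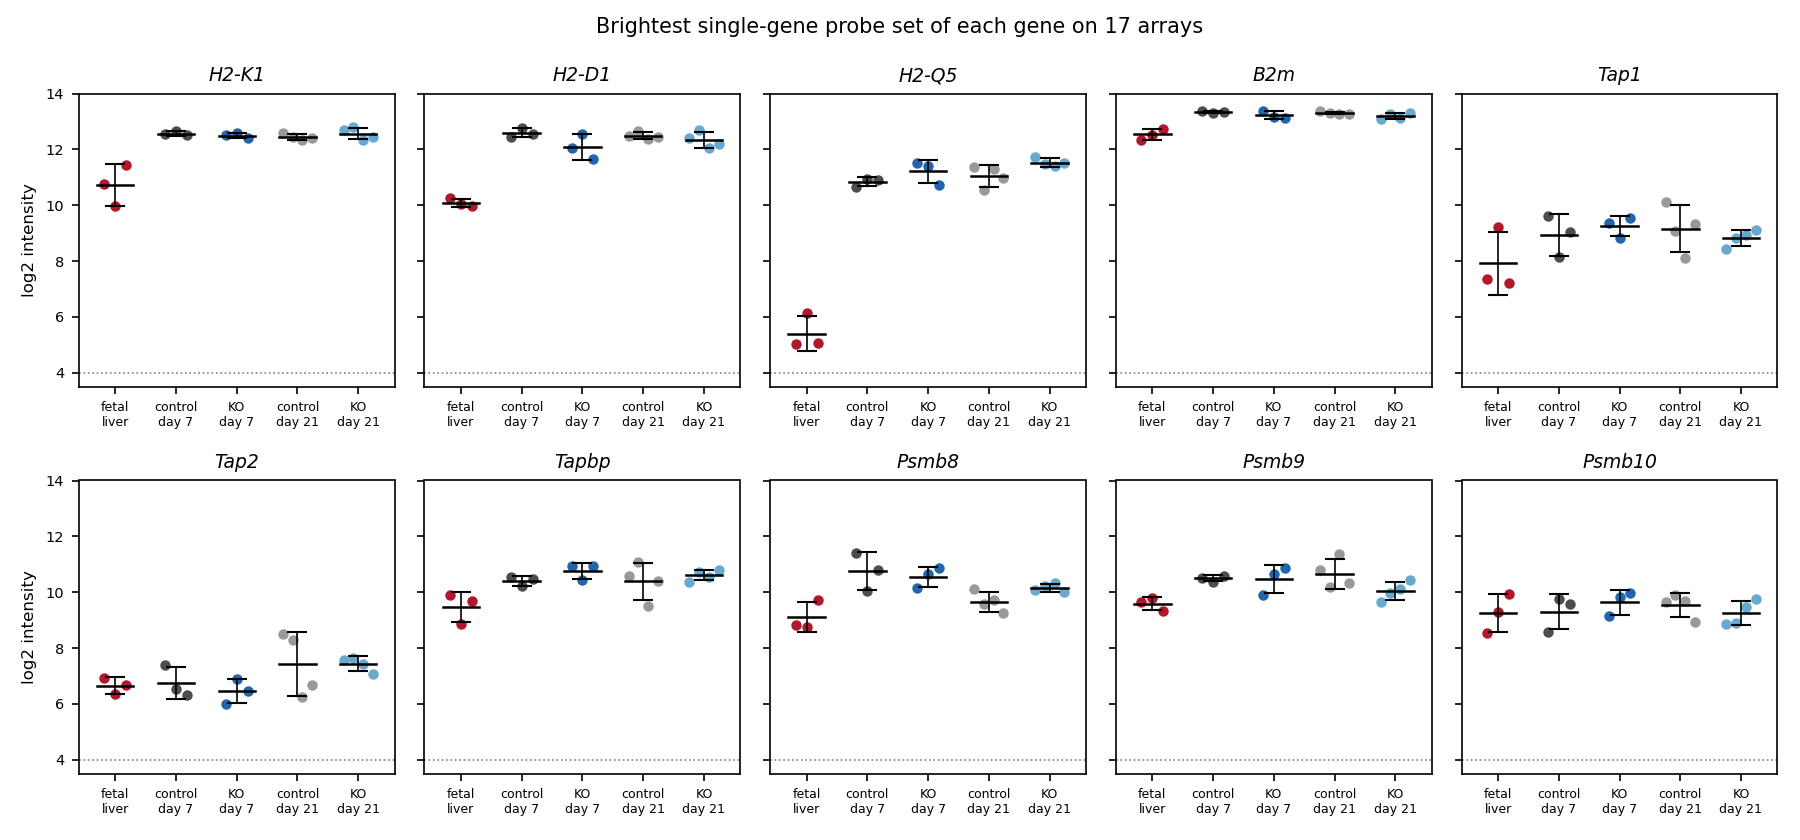
Log2 intensity (y axis) of the brightest single-gene probe set of each of the 10 genes on all 17 arrays, by group (x axis). Points are arrays, horizontal bars group means, error bars SD, and the dotted line is the lowest deposited value, a log2 intensity of 4. Fetal points lie below all adult points for H2-K1, H2-D1, H2-Q5 and B2m, below all control points but not all KO points for Psmb9, and partly among the control points for Tap1, Tap2, Tapbp, Psmb8 and Psmb10.

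The heavy chain gene with the widest gap was H2-Q5, a class I gene of the Q region that RefSeq lists as a transcribed pseudogene (chr17:35394099-35395630). Probe set 1430802_at read 32.8, 70.0 and 33.2 on fetal replicates 1, 2 and 3, and from 1484 to 3426 on the 14 adult arrays with a median of 2577. The log2 difference from control was -5.54 (SE 0.26). The fetal values lay around the median intensity of an array (39.4 to 53.1) and near the lowest deposited value of 16, so the size of this gap is limited by what the array can read, and no fold is given. The other single-gene H2-Q5 probe set, 1450582_at, was dim everywhere, from 35.6 to 64.5, and its difference was 0.14 (SE 0.13). The pair therefore disagree, and the gap for H2-Q5 rests on 1430802_at.

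H2-D1, one of the classical heavy chains (chr17:35263094-35267497), was read by 9 probe sets of its own. On the brightest, 1426324_at, fetal intensities were 1219, 1044 and 1001, and the 7 control arrays ranged from 5267 to 6964 with a median of 5667. No fetal array came near an adult one, since the lowest of the 14 adult arrays stood at 3193. The log2 difference was -2.45 (SE 0.18), or 5.48-fold. Further H2-D1 probe sets with clear signal were lower by similar amounts, at -2.04 for 1425545_x_at, -2.03 for 1451784_x_at, -2.05 for 1451683_x_at and -1.39 for 1450170_x_at. Another pair of intermediate brightness, 1427651_x_at at -0.17 and 1452544_x_at at 0.34, overlapped with controls. The dim 1451934_at and 1425614_x_at gave 0.33 and -0.33.

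H2-K1, the other classical heavy chain measured here (chr17:33996012-34000619), gave fetal intensities of 1754, 995 and 2764 on 1425336_x_at against 5105 to 6499 on the control arrays. The difference was -1.78 (SE 0.23), or 3.44-fold, with fetal liver below all 14 adult arrays. It was -2.24 (SE 0.23) on 1451931_x_at and -2.44 (SE 0.31) on 1427746_x_at. Fetal replicate 2 was the lowest of the 3 arrays on each of these probe sets, at 276 on 1427746_x_at where replicates 1 and 3 read 714 and 1246. The shared H2-K1 and H2-D1 probe set 1424948_x_at followed the same pattern, with 254, 106 and 285 in fetal liver, 596 to 847 in control and a difference of -1.87 (SE 0.25).

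Of the 18 heavy chain probe sets, 6 had a mean over all arrays under that of the median probe set (log2 intensity 5.94). Their differences ranged from -0.67 to 0.33, and 2 of them, 1450534_x_at of H2-K1 at -0.59 and 1425614_x_at of H2-D1, had fetal liver below all controls. A small difference on a dim probe set does not show an equal level.

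B2m, the light chain common to all these molecules, had a narrower gap than the brightest probe set of each heavy chain gene. Probe set 1452428_a_at read 5180, 5918 and 6849 in fetal liver and 9842 to 10697 on the control arrays. The difference was -0.79 (SE 0.10), or 1.72-fold, and the lowest of the 14 adult arrays stood at 8808. On 1449289_a_at fetal values of 6793, 5927 and 7010 lay below adult values of 8236 to 10617, with a difference of -0.44 (SE 0.10). Both B2m probe sets thus had no fetal array within the adult range.

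**Figure D2:**
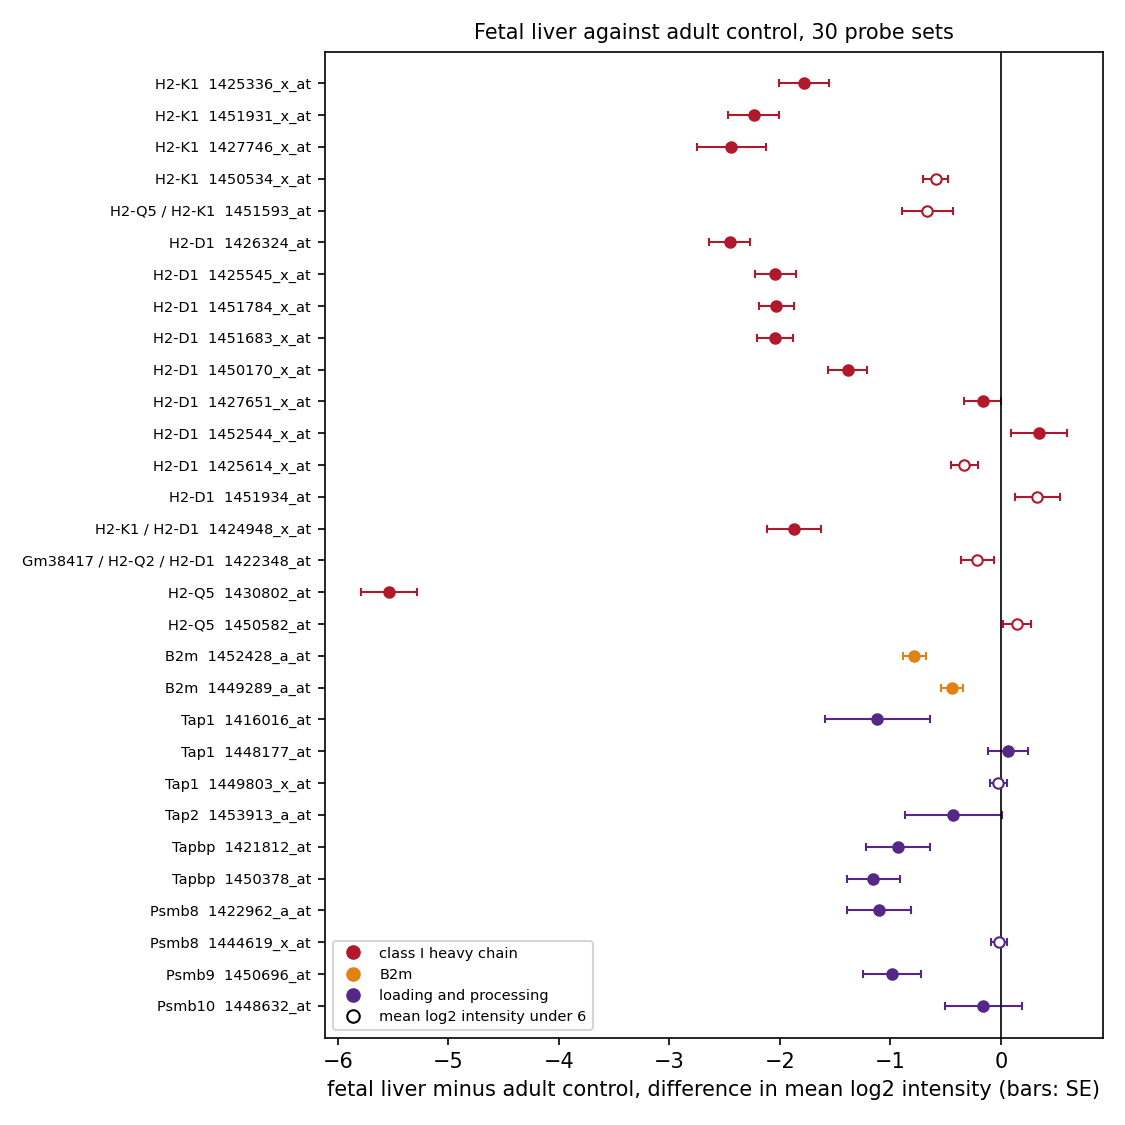
Fetal liver minus adult control, as a difference in mean log2 intensity (x axis), for the 30 member probe sets (y axis, gene and probe set). Bars are SE from the fit, open symbols have a mean log2 intensity under 6, and the heavy chain values reach from -5.54 to 0.34 while those of loading and processing genes stay between -1.15 and 0.07.

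The peptide transporter was less clear. Tap1 on 1416016_at read 165, 600 and 147 in fetal liver and 278 to 1121 in control. Fetal replicate 2 lay inside the control range and the other two below it, and the difference was -1.12 (SE 0.48). A second Tap1 probe set with signal, 1448177_at, gave 0.07 (SE 0.18), and 1449803_x_at lay between 16 and 18.1 on all arrays, at or just above the lowest deposited value. Tap2, its partner subunit, read 122, 81.3 and 104 in fetal liver and 75.8 to 359 in control, a difference of -0.43 (SE 0.44) with full overlap. Tapbp, the tapasin gene that holds empty class I at the transporter, read 207, 252 and 321 on 1450378_at against 403 to 763 in control, with no overlap and a difference of -1.15 (SE 0.24). On the brighter 1421812_at it read 948, 468 and 816 against 725 to 2170, a difference of -0.93 (SE 0.29) with overlap, since control day 21 replicate 3 stood at 725.

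Among the immunosubunits of the proteasome, Psmb9 read 809, 877 and 651 in fetal liver and 1158 to 2657 in control. Its fetal arrays lay below every control array, with a difference of -0.99 (SE 0.26), and the lowest KO array at day 21, at 813, came within the fetal range. Psmb8 read 459, 429 and 844 in fetal liver and 605 to 2728 in control, so fetal replicate 3 overlapped, and the difference was -1.10 (SE 0.29). Its second probe set, 1444619_x_at, stayed at or near the lowest value on all arrays. Psmb10, which lies on chromosome 8 apart from the MHC region, read 373, 628 and 977 against 382 to 965, a difference of -0.16 (SE 0.35). Of the 10 tested probe sets for loading and processing, 2 (Psmb9 and Tapbp 1450378_at) lay below all controls, compared with 12 of 18 for heavy chains and 2 of 2 for B2m.

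The constitutive subunits that the immunosubunits replace were set beside them as a difference in log2 intensity on the same array. The size of this difference has no meaning of its own, because different probe sets are compared, but its change between groups does. Psmb8 minus Psmb5 was 0.91 ± 1.24 (SD, n = 3) in fetal liver, 2.80 ± 0.66 (SD, n = 3) in control at day 7 and 2.46 ± 0.90 (SD, n = 4) in control at day 21. Psmb10 minus Psmb7 was -1.48 ± 0.76 (SD, n = 3) in fetal liver, 0.79 ± 1.02 (SD, n = 3) and 0.85 ± 0.84 (SD, n = 4) in the same controls. KO arrays had -0.39 ± 0.30 (SD, n = 3) at the earlier and -0.41 ± 0.72 (SD, n = 4) at the later day. Psmb9 minus Psmb6 was -0.18 ± 0.73 (SD, n = 3) in fetal liver and 0.98 ± 0.82 (SD, n = 3) and 1.03 ± 0.94 (SD, n = 4) in control. Psmb10 itself differed by -0.16, as given above, while its partner Psmb7 was higher in fetal liver by 2.14 (SE 0.50, limma adjusted p = 0.0347), a call that was lost in 6 of 10 fits that left out 1 array, with an adjusted p of 0.158 without fetal replicate 2.

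Genes around the pathway are no members and were tested in the fetal comparison. Their lists were drawn up for this tissue and pathway with earlier results of these data known. Calls in them are therefore no independent support for the member differences. Each gene was represented by its brightest probe set. Over all 40023 probe sets, limma called 1.61% lower and 1.46% higher in fetal liver at an adjusted p under 0.05. Of the 22 measured regulators of class I transcription 3 were called lower and 1 higher, with a median difference of -0.16, beside 0.02 over all genes.

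Irf1, the interferon-induced factor that binds class I promoters, was the regulator with the firmest call. It read 128, 290 and 261 in fetal liver, and the 7 control arrays ranged from 833 to 1181. The KO arrays, from 650 to 1554, lay above the fetal ones as well. The difference was -2.26 (SE 0.27, limma adjusted p = 3.36e-04), and it was called under every alternative fit and with any single fetal or control array left out. Nlrc5, the class I transactivator, read 221, 31.2 and 61.1 in fetal liver and 99.3 to 918 in control. Its difference of -2.75 (SE 0.64, limma adjusted p = 0.0344) was lost in 7 of 10 fits that left out 1 array and reached an adjusted p of 0.171 without fetal replicate 2. Rfx5, a subunit of the RFX complex on MHC promoters, fell by 2.29 (SE 0.54, limma adjusted p = 0.0374) and was lost in 8 of 10 such fits, with 0.14 without fetal replicate 2. Irf8, a factor of monocytes, dendritic cells and B cells, was higher by 2.04 (SE 0.37, limma adjusted p = 0.00867). It read 287 to 393 in fetal liver and 56.9 to 164 in control, with KO day 21 replicate 1 at 302. Its other probe set, 1416714_at, was called as well, at 0.98 (limma adjusted p = 0.0246). Of the marker lists above, that of macrophages and monocytes was higher on fetal arrays, that of dendritic cells overlapped and that of B cells was not higher. The part of these cells in the Irf8 difference was not tested.

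**Figure D3:**
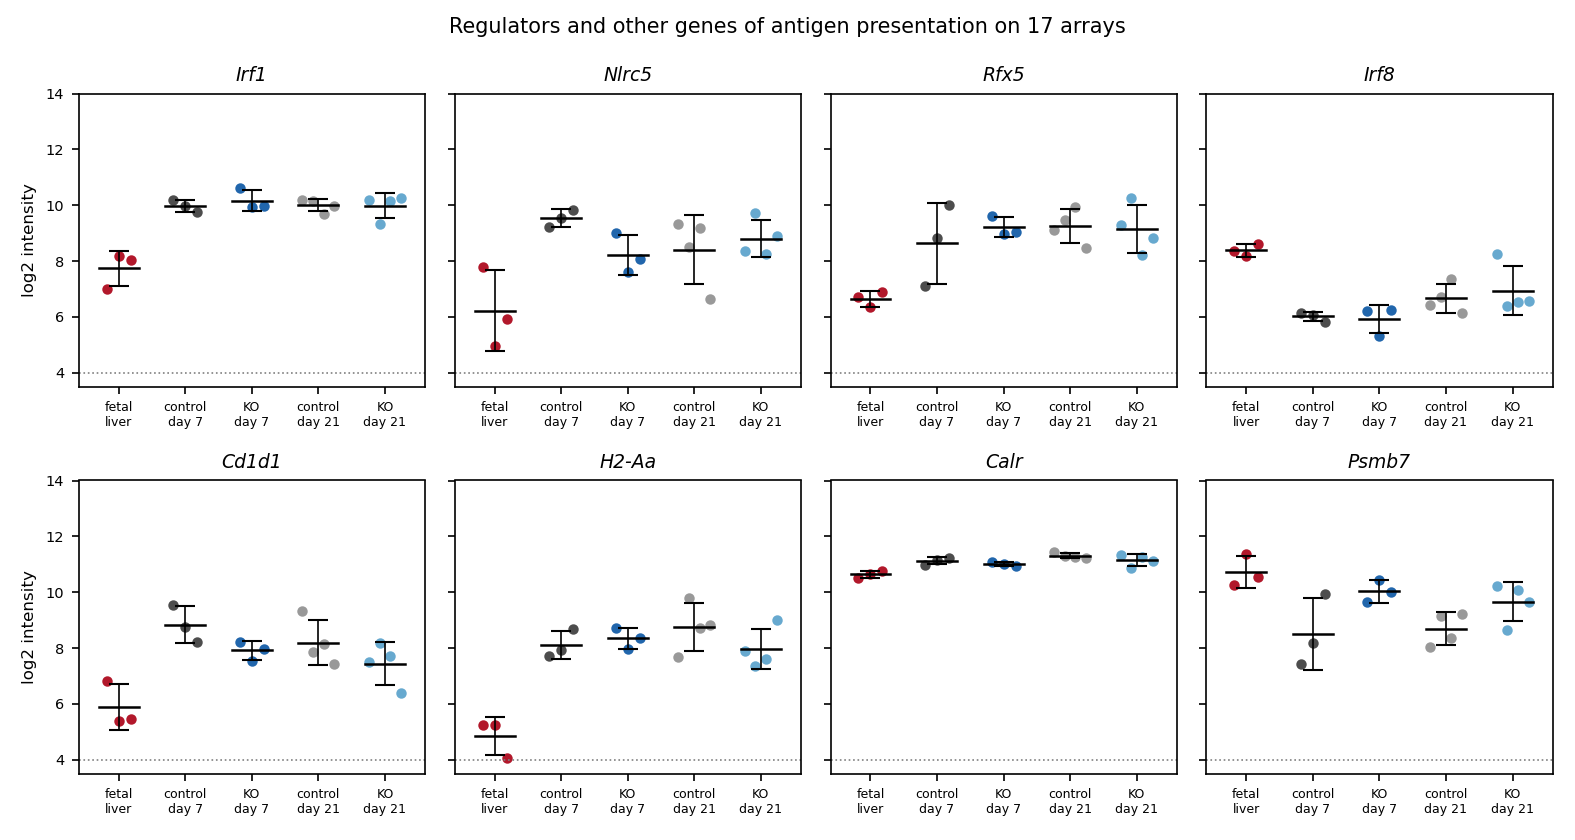
Log2 intensity (y axis) on all 17 arrays by group (x axis) for 4 regulators (Irf1, Nlrc5, Rfx5, Irf8), the class I-like Cd1d1, the class II chain H2-Aa, the loading chaperone Calr and the constitutive proteasome subunit Psmb7. Points are arrays, horizontal bars means, error bars SD; the 3 fetal Irf1 points, 128 to 290 in intensity, lie below all 14 adult points, which start at 650.

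Other genes of antigen presentation were mixed. Among 10 tested class I and class I-like genes Cd1d1, which presents lipids, was called lower at -2.62 (SE 0.47, limma adjusted p = 0.00833) and none higher. The Cd1d1 call was lost without fetal replicate 2 (adjusted p = 0.0502) and in a fit to the compared arrays alone (0.0592), and its other probe set gave -0.53 (adjusted p = 0.67). Fcgrt, the neonatal Fc receptor, had a difference of 1.12 (SE 0.33, adjusted p = 0.0892), and the list's median was -0.42. Of 24 genes on this list 13 had no single-gene probe set in the annotation, among them H2-Q4, H2-Q7 and H2-T23. Of 10 other loading and processing genes 2 were called lower: Calr, the chaperone calreticulin of the loading complex, at -0.58 (SE 0.12, adjusted p = 0.0156, 0.0589 without fetal replicate 1 and 0.106 among brighter probe sets only), and Hspa5, the general chaperone BiP, at -1.20 (SE 0.18, adjusted p = 0.00163). A further Calr probe set, 1417606_a_at, gave -0.13 and was not called. Tapbpl, a relative of tapasin, had -1.18 (SE 0.34, adjusted p = 0.0818).

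MHC class II genes, which serve antigen-presenting cells and have their own regulator in Ciita, had 3 of 8 called lower and a median of -1.74. H2-Aa, a class II chain, was at 38.3, 38.4 and 16.7 in fetal liver and 205 to 885 in control, with a difference of -3.58 (SE 0.45, limma adjusted p = 4.97e-04). These fetal values are near the lowest deposited value. Of its other probe sets 1452431_s_at was called at -2.66 (adjusted p = 1.09e-04) and 1438858_x_at, at -1.23, was not (adjusted p = 0.0975). H2-Ab1 fell by 2.26 (adjusted p = 0.0219, 0.099 without fetal replicate 2 and 0.11 without fetal replicate 3) and H2-DMa by 2.23 (adjusted p = 0.0356, lost in 6 of 10 fits without 1 array). Other H2-Ab1 probe sets gave -0.93 (1425477_x_at, limma adjusted p = 0.0275) and -0.98 (1451721_a_at, adjusted p = 0.254). The other H2-DMa probe set, 1459872_x_at, was called at -1.30 (adjusted p = 0.00661). Interferon-stimulated genes other than the members had 1 of 33 called lower, Ly6e at -1.46 (SE 0.25, adjusted p = 0.00534, and 0.0669 in a fit to the compared arrays alone), and a median of -0.37. A second Ly6e probe set, 1439773_at, gave -1.10 and was not called (adjusted p = 0.324). The largest difference of that list, -1.62 for the guanylate-binding protein gene Gbp3, was not called (adjusted p = 0.348).

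Genes of the MHC region that have no part in antigen presentation were set beside the members. Of 38 such neighbours 3 were called lower (Ier3, an early response gene, at -2.43, and the heat shock genes Hspa1b at -5.00 and Hspa1a at -4.16, the last lost in 8 of 10 fits without 1 array), none higher, and their median was -0.08. Neither other Hspa1b probe set was called, at -3.03 (limma adjusted p = 0.249) and -3.44 (adjusted p = 0.153). The brightest probe sets of the 10 members had a median of -1.05. This contrast chose the members, so the gap between these medians is no test of the pathway against its region.

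No member probe set was called between C/EBPa KO and control on either day. In simulated data the fit called a log2 change of 1 on 4% of changed probe sets at day 7 and 16% at day 21. It called a log2 change of 2 on 30% and 42%. The absence of a call therefore does not show equal levels. Changed probe sets were drawn at random from those brighter than the median, so these rates are averages. Rates for single members, whose spreads differ, were not computed. At day 7 limma called 0 of the 30 probe sets, and it called 0.0025% of all probe sets. At an unadjusted p under 0.05 there were 3 of the 30, beside 6.69% of all. The largest of these differences was -0.65 (SE 0.27, limma adjusted p = 0.698) for the dim shared probe set 1451593_at. H2-D1 on 1426324_at read 4256, 6042 and 3193 in KO and 5587, 6964 and 6026 in control, a difference of -0.50 (SE 0.22, adjusted p = 0.71) with overlap. Its other bright probe sets did not follow, at -0.03 for 1425545_x_at and 0.07 for 1451784_x_at. KO arrays lay above all controls on 0 of the 30 (6.73% of all probe sets) and below on 2 (6.24% of all), both dim shared probe sets.

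**Figure D4:**
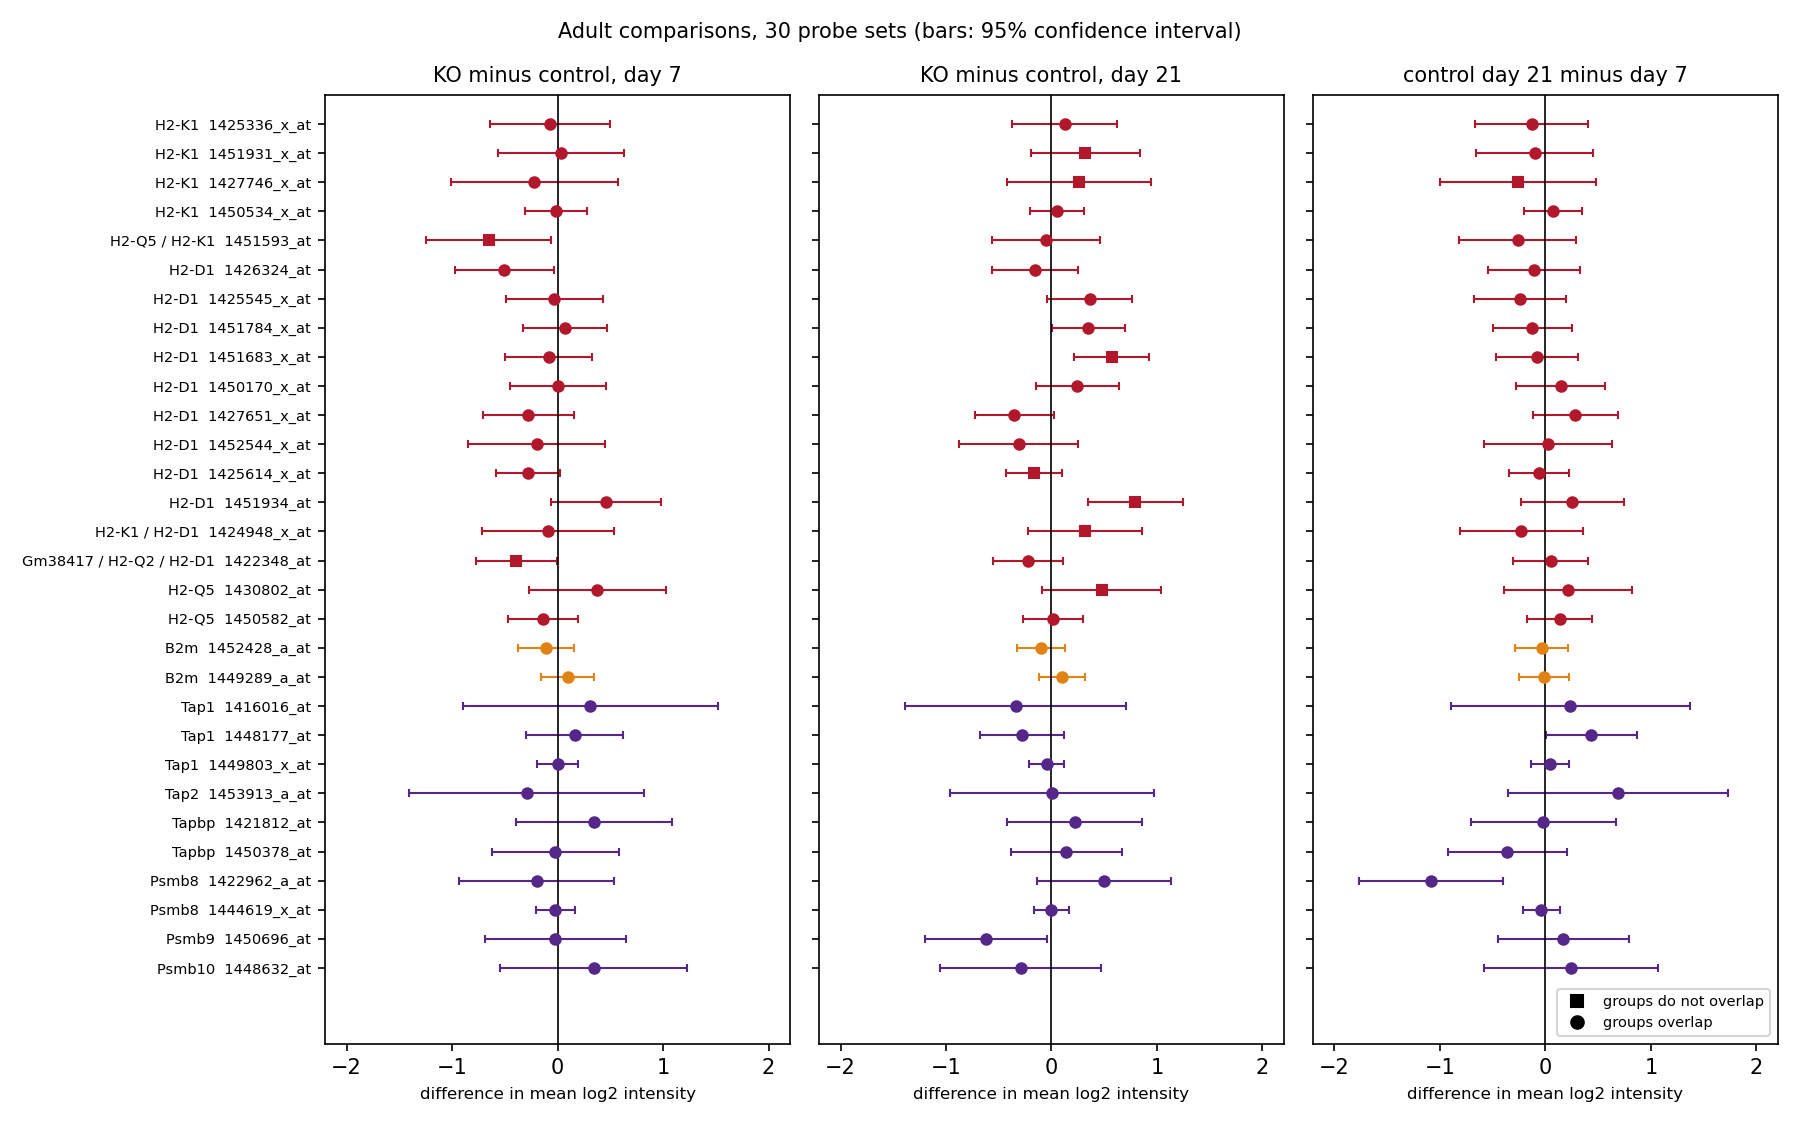
Differences in mean log2 intensity (x axis) for the 30 member probe sets (y axis) between KO and control at day 7 and day 21 and between the control groups. Bars are 95% confidence intervals from the fit, and squares mark groups that do not overlap, which at day 21 are 6 probe sets above and 1 below control in the deposited scaling.

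At day 21 limma called 0 of the 30 as well, with 0.03% of all probe sets called. At an unadjusted p under 0.05 there were 4 of the 30, beside 9.35% of all. KO arrays lay above all 4 control arrays on 6 of the 30 probe sets, against 3.13% of all, and below on 1, against 2.03%. The 6 were all heavy chain probe sets: H2-K1 1427746_x_at and 1451931_x_at, H2-D1 1451683_x_at and 1451934_at, H2-Q5 1430802_at and the shared 1424948_x_at. They share target sequence and are no independent observations. The count also depended on the scaling: 4 remained with quantile normalization and 0 after arrays were centred on their medians, a setting that moved the median of all probe sets in this comparison by -0.17. H2-Q5 read 3426, 2828, 2695 and 2886 in KO and 2625, 1484, 2529 and 2033 in control, a difference of 0.48 (SE 0.26, limma adjusted p = 0.62). H2-D1 1451683_x_at read 463, 390.5, 313 and 370.4 in KO and 233 to 297 in control, a difference of 0.57 (SE 0.17, adjusted p = 0.295). The H2-D1 probe set 1451934_at, with 37.8 to 45.7 in KO and 19.1 to 36.2 in control, gave 0.80 (SE 0.21, adjusted p = 0.251). The bright H2-D1 probe set 1426324_at gave -0.15 (SE 0.19). Markers of megakaryocytes (5 genes) had a mean log2 intensity of 8.36 to 9.46 on KO and 6.84 to 7.87 on control arrays of day 21, and those of neutrophils (7 genes) 5.55 to 6.07 and 6.07 to 8.75. The Actb 3' to 5' probe ratio, a sign of RNA quality, was -0.59 to -0.48 in log2 on KO and -0.95 to -0.62 on control arrays of day 21, with no overlap. The part of these cells and of RNA quality in these differences was not tested.

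The rest of the pathway at day 21 was spread around 0. Psmb9 read 813, 995, 1116 and 1385 in KO and 1158 to 2657 in control, a difference of -0.62 (95% interval -1.20 to -0.04, limma adjusted p = 0.502). Psmb8 had 0.50 (interval -0.14 to 1.13), Tap1 -0.34 (interval -1.39 to 0.71), Tap2 0.01 (interval -0.96 to 0.97) and B2m 1452428_a_at -0.10 (interval -0.33 to 0.13). The B2m interval is narrow and those of Tap1 and Tap2 are wide. Of the 124 genes in the lists around the pathway limma called 0 on either day, with 5 (4.03%) at day 7 and 10 (8.06%) at day 21 at an unadjusted p under 0.05, shares below those of all probe sets given above. At day 21 the median was 0.34 for regulators and 0.45 for interferon-stimulated genes, where Usp18, which damps interferon signalling, had 2.16 (SE 0.49, adjusted p = 0.177) and Irf9, a partner of STAT factors, 1.33 (SE 0.67, adjusted p = 0.582). Over all probe sets the median was 0.01.

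The KO effect was not called as different between days for any of the 30 probe sets, with 0.0025% of all probe sets called and 1 of the 30 at an unadjusted p under 0.05, beside 4.71% of all. That one was H2-D1 1451683_x_at, with a KO effect higher at day 21 than at day 7 by 0.66 (SE 0.25, limma adjusted p = 1). Control at day 21 against control at day 7, which separates the later from the earlier time after pIpC, likewise gave 0 of the 30 called (0.05% of all) and 2 with an unadjusted p under 0.05, beside 7.53% of all. The largest difference was in Psmb8, an interferon-induced subunit, which read 2728, 1057 and 1769 at day 7 and 1099, 772, 845 and 605 at day 21, a difference of -1.08 (SE 0.32, limma adjusted p = 0.411). Its groups overlapped at 1057 and 1099. Control arrays of day 21 lay below those of day 7 on 1 of the 30 (3.42% of all; H2-K1 1427746_x_at) and above on 0 (2.27% of all). The other of the 2 was Tap1 1448177_at at 0.44 (SE 0.20, limma adjusted p = 0.661). Tap1 1416016_at, Tap2, Psmb9 and Psmb10 had differences of 0.23, 0.69, 0.17 and 0.24 over the same interval, and interferon-stimulated genes a median of -0.31.

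The order of group means was taken on the brightest single-gene probe set of each gene, and other probe sets can give another order: fetal liver was the highest group on H2-Q5 1450582_at and H2-D1 1452544_x_at. On the brightest ones fetal liver was the lowest of the 5 groups for H2-Q5, H2-D1, H2-K1, B2m, Tapbp, Psmb8, Psmb9 and Tap1. The step from fetal liver to the next group exceeded the larger SD of the pair for all of these but Tap1, where it was 0.90 against an SD of 1.13. The steps were 5.43 for H2-Q5, 2.00 for H2-D1, 1.72 for H2-K1 and 0.67 for B2m, each next to an SD of 0.74 or less. Above fetal liver no neighbouring adult groups differed by more than their SD on these 4 probe sets. Other probe sets of the heavy chains had such adult steps, among them 0.49 against an SD of 0.23 from control at day 7 to KO at day 21 on H2-D1 1451683_x_at, and 0.58 against 0.12 from KO at day 7 to KO at day 21 on 1451934_at. For Psmb8 the adult groups ran from control at day 21 through KO at day 21 and KO at day 7 to control at day 7, with steps of 0.50 and 0.39 beyond the SD and a last step of 0.20 within it. Tapbp had 1 adult step beyond its SD, 0.20 against 0.19, from control at day 7 to KO at day 21. For Tap2 and Psmb10 no step exceeded its SD.

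The genes whose brightest probe sets followed the mean of the members most closely over the 17 arrays, of 8382 searched, were Ctla2a (Pearson r 0.95), Bhlhe40 (0.94), Rgs1 (0.94) and Irf1 (0.93). All share the step between fetal and adult arrays, and the arrays share their libraries, so these values are a description. Among the members themselves H2-Q5 (0.96), B2m (0.93) and H2-D1 (0.93) were near that mean and Psmb10 (0.20) was not. Over the 14 adult arrays alone the order was another: the values were -0.13 for H2-Q5, 0.06 for H2-D1 and 0.22 for B2m, while Tap1 had 0.69 and Tap2 0.68. Each member is part of the mean it is compared with.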

How the data were processed

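The authors deposited 1 intensity per probe set on a linear scale for 17 Affymetrix arrays and 45101 probe sets. RMA is the one tool in the submitters' processing notes, without role or version, and scaling between arrays was not given in the sources used here. Per the labels' protocols, RNA was amplified with Ovation Pico WTA V2 before hybridization, so low intensities carry amplification error. Each array had 16 as its lowest intensity, with 20.4% to 25.2% of probe sets per array at it; median intensity was 39.4 to 53.1. The highest correlation between arrays was 0.952, and no arrays were identical. The number of arrays limits the precision.

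Log2 of the deposited intensity was taken with no pseudocount. The design had assumed log2 values. Control probe sets (64) and 5014 at the lowest value on all arrays were left out, and 40023 were tested with limma 3.58.1 in R 4.3.3 (lmFit, eBayes, 1 mean per group, residual df 12, prior df 1.41). A call was a Benjamini-Hochberg adjusted p under 0.05 over all of them. Adjusted p-values are limma's throughout. The fit was tested on simulated data, with changes set on probe sets brighter than the median. Symbols came from the platform annotation (34958 probe sets with 1 gene, 932 with several, 9160 unnamed), coordinates and promoters from RefSeq GRCm38.p6.

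All member probe sets were named. Other lists were given as counts and medians, naming called genes and the largest differences. The members and lists were chosen with earlier results of these data known. Replicate numbers did not pair arrays: over 31 same-numbered pairs the correlation of deviations from group means was -0.03 to 0.08, none over 0.1. Alternatives were median centring, quantile normalization, 1 probe set per gene, a filter on dim probe sets or none, log2(value + 32), only the arrays compared, trend and robust moderation, a replicate block, the share of probe sets at the lowest value as covariate, and leaving out each array.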

Additional observations from a re-analysis of the deposited data

Results flagged for a closer look

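One value among 57 group values checked stood apart from the other arrays of its group. The Tap1 probe set 1449803_x_at read a log2 intensity of 4.18 on control day 21 replicate 3, where the other 3 arrays lay from 4 to 4.01, and 4 is the lowest deposited value. Chance gives about 1 such value in 20 groups of freely varying values. Here 2 of the 4 arrays were at the lowest deposited value, where this rate need not hold.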

How the results depend on the processing

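No alternative called any member in the comparisons among adult arrays: the count stayed at 0 of the probe sets tested under all of them, with each array left out (0 to 0) and with the replicate block (0). Fetal liver lay below all control arrays on 5 of 10 genes with 1 probe set per gene, in place of 16 of 30, and on 16 to 18 with 1 array left out; it lay above on 0 to 1 with 1 array left out, the 1 without fetal liver replicate 1. Among single probe sets 2660 values stayed within the spread of replicates and 50 moved beyond it. None of those in the comparisons among adult arrays crossed the threshold. The fetal differences of the members are counted too, but had no test and so could not cross it. Centring on the median moved the median of all probe sets by -0.17 for KO at day 21 and by 0.19 for control day 21 against day 7, which turned small differences near 0. Probe sets near the lowest intensity give bounds only.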
